A study of Mus musculus with 9 samples.

Results

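Rapamycin was compared with vehicle in mouse macrophages loaded with spinal cord homogenate. The comparison uses 6 of the 9 libraries of the study, 3 labelled rapamycin and 3 labelled vehicle in their titles, and covers every gene with enough counts. All cells were wild-type bone-marrow-derived macrophages, grown from marrow of C57BL/6J mice of 8 to 12 weeks, male and female, with the bones of different animals kept apart. Both groups received their compound or vehicle for 2 h and then homogenate at 1% weight per volume (10 mg/mL), with the compound still present, for 24 h. The homogenate came from pooled cords of C57BL/6 mice of 8 to 20 weeks, freed of meninges, so all libraries share its lipid, protein and RNA, and no library came from cells without homogenate. The dose of rapamycin and the nature of the vehicle are not known here. The study used rapamycin as the control for mTORC1 inhibition beside Torin-2, which blocks the mTOR kinase itself, and the 3 Torin-2 libraries serve here for the estimate of spread and for 1 test near the end.

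mTOR is a kinase that works in 2 complexes. mTORC1 responds to amino acids, growth factors and energy, and drives protein, lipid and nucleotide synthesis while holding back autophagy and lysosome genes. Rapamycin binds the small protein FKBP12, and the pair docks beside the catalytic site of mTORC1, which blocks some of its substrates more than others. mTORC2, which phosphorylates AKT, is not bound directly. In macrophages mTORC1 also feeds into activation, lipid handling and cell growth. Messenger RNAs that begin with a run of pyrimidines (terminal oligopyrimidine or TOP mRNAs, chiefly those of ribosomal proteins and elongation factors) are translated when mTORC1 is active and are bound by LARP1 when it is not.

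Counts separated the groups clearly. The 6 libraries held 16116666 to 22686047 counts, and 12511 genes were tested. Of these, 6351 passed at an adjusted p under 0.05 (edgeR's quasi-likelihood test, Benjamini-Hochberg), which is 50.8%. They divided into 3078 higher with rapamycin (24.6%) and 3273 lower (26.2%), and each count of list members below is to be read against those shares. With libraries scaled by their totals alone the split was 2421 higher and 4046 lower, because that scaling moved the median of all genes to -0.09 on the log2 scale, from 0.001. The 3 libraries of one group stood wholly apart from those of the other in 57.5% of genes, with rapamycin higher in 27.8% and lower in 29.7%. Most of the changes were small: 3602 of the genes that passed (56.7%) changed less than 1.5-fold, while 432 genes (3.45%) rose and 644 (5.15%) fell at least 2-fold. In a principal component analysis of the 6 libraries, the first component carried 62.3% of the variance and separated rapamycin from vehicle. The second carried 19.3% and set replicate 3 of both groups apart from replicates 1 and 2. Expression below is in CPM, counts scaled to a common library size and composition, and a number in parentheses after a gene is its log2 fold change, rapamycin minus vehicle. Bulk RNA cannot tell fewer cells of a type from less RNA per cell.

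Promoter letters of gene groups that the results turn on are shown first. TOP mRNAs come first because they are the class whose translation is most directly tied to mTORC1. These are 30 bases around the annotated start (10 before it and 20 after) of the ribosomal protein or translation factor genes with the largest rises among those that hold a C followed by at least 6 pyrimidines, beginning within 5 bases of the start. Capitals mark the run from the C nearest the start that meets this rule, and any pyrimidines just before that C are in lower case. Sequences are from RefSeq on GRCm38.p6, 5′ to 3′.
Eef1a1 (chr9:78481705-78481734, minus strand): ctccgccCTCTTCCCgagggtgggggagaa
Eif3f (chr7:108934405-108934434, plus strand): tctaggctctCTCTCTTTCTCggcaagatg
Rps27 (chr3:90213629-90213658, minus strand): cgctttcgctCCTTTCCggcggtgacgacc
Rps9 (chr7:3704031-3704060, plus strand): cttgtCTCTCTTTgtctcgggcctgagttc
Rpl13a (chr7:45128726-45128755, minus strand): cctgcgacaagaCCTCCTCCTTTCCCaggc
Fau (chr19:6057937-6057966, plus strand): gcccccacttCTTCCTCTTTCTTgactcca
Such a run stood at the start of 23 of the 57 ribosomal protein genes with a promoter in the table (40.4%), against 8.53% of the 9283 tested genes with one and 6.48% of all 32851 promoters. All 23 were higher with rapamycin, with a median log2 fold change of 0.46, and 31 of the other 34 were too, with a median of 0.49. A run that is shorter, or has no such C within 5 bases of the annotated start, is not counted. The 34 may therefore include TOP mRNAs, and these medians do not compare TOP mRNAs with others. Of all 792 tested genes with such a run, 257 were higher and 163 lower, against 2069 and 2407 of the 8491 without one.

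Replication, mitosis and glycolysis genes carry other letters. The next sequences are the 120 bases before the start of the 3 replication genes and 3 mitosis genes with the largest falls that hold, in that stretch, the letters TTCCCGC (an E2F site, replication) or TTTGAA (a cell cycle homology region, mitosis), and of 2 glycolysis genes that hold ACGTG (the core of a hypoxia response element). Both strands were searched, and capitals mark the matches on either strand.
Uhrf1 (chr17:56303217-56303336, plus strand): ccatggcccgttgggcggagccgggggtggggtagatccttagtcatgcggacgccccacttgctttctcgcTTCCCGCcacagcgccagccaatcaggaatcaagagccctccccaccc
Hells (chr19:38930870-38930989, plus strand): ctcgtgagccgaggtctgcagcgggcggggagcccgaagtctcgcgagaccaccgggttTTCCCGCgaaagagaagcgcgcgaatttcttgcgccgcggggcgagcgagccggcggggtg
Mcm7 (chr5:138171267-138171386, minus strand): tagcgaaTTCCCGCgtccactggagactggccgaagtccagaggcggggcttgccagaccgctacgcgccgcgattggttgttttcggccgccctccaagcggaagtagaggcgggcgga
Kif11 (chr19:37376262-37376381, plus strand): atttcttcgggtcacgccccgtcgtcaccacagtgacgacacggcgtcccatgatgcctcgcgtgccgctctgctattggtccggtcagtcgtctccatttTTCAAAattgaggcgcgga
Top2a (chr11:99024190-99024309, minus strand): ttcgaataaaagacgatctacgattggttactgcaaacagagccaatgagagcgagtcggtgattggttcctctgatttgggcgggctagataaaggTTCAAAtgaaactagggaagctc
Ect2 (chr3:27153879-27153998, minus strand): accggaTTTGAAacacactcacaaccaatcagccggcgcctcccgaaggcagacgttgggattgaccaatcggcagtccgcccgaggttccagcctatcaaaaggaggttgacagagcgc
Pfkfb3 (chr2:11553930-11554049, minus strand): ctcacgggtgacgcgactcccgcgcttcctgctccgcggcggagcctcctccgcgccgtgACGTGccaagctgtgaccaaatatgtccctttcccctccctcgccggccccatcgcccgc
Ldha (chr7:46845684-46845803, plus strand): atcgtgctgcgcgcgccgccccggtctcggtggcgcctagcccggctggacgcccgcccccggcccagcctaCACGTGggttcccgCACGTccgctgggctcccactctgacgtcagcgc
Over the 250 bases before and 50 after the start, TTCCCGC was found in 20 of 44 replication genes (45.5%) against 9.95% of all tested genes with a promoter, and TTTGAA in 21 of 34 mitosis genes (61.8%) against 14.4%. ACGTG was found in 22 of 29 genes of glycolysis and HIF-1 (75.9%) against 29.8%, and CACGTGA, the lysosomal CLEAR letters, in 12 of 41 lysosome genes (29.3%) against 7.14%. Every match to CACGTGA also holds ACGTG, and in Ldha 2 matches to ACGTG overlap within CACGTG. Over all 32851 promoters the shares were 4.6%, 17.9%, 19.6% and 3.77% for the 4 sets of letters in this order. Of 20 replication genes with the E2F letters 18 fell, and so did 22 of 24 without them. Of 21 mitosis genes with TTTGAA 17 fell, against 10 of 13 without it, and of 22 glycolysis and HIF-1 genes with ACGTG 15 fell, against 5 of 7 without it. Of 12 lysosome genes with CACGTGA 2 rose and 2 fell, against 8 and 10 of 29 without it. These differences were not tested.

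The genes of the drug's own targets did not pass, while several genes around mTOR did. Fkbp1a, which encodes FKBP12, stood at 228, 213 and 223 CPM with vehicle and 229, 229 and 246 CPM with rapamycin, and its adjusted p was 0.21 (edgeR, Benjamini-Hochberg). The kinase gene Mtor stood at 39.6, 32.1 and 41.4 CPM with vehicle and 40.5, 34 and 36.5 CPM with rapamycin, and the mTORC1 scaffold Rptor at 57.1, 53.1 and 60.2 CPM with vehicle and 62.2, 56.7 and 57.7 CPM with rapamycin. For Mtor and Rptor the groups overlap, and for Fkbp1a the lowest rapamycin library was level with the highest vehicle library. Of 11 genes of the mTOR complexes and their assembly, 2 rose and 2 fell. Rictor, the scaffold of mTORC2, rose from 13.4, 13.6 and 14.1 CPM to 23.6, 19.98 and 25.4 CPM (0.74, SE 0.09), with no overlap. The mTOR-binding inhibitor Deptor rose from 3.47, 4.61 and 2.46 to 7.27, 6.06 and 6.27 CPM (0.89), while Prr5l (-0.97), an mTORC2 partner, and Telo2 (-0.40), an assembly factor, fell. Prr5l did not pass without rapamycin replicate 1, 2 or 3 or vehicle replicate 1 or 3 (-0.996 to -0.94, adjusted p 0.0524 to 0.0759, edgeR).

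Of 9 genes of the switch upstream of mTORC1, 2 rose, 4 fell and 3 did not pass. Ddit4, which encodes the stress-induced inhibitor REDD1, fell from 2.95, 1.89 and 3.32 CPM to 0.837, 0.71 and 0.551 CPM (-1.96, SE 0.37). Sesn3, a sestrin that restrains mTORC1 when amino acids are scarce, fell from 20.04, 18.9 and 21.7 CPM to 5.66, 7.1 and 5.56 CPM (-1.72), and Sesn1 (-0.87) also fell. Each vehicle library stood above each rapamycin library for these 3 genes. The small GTPase gene Rheb (0.16), whose product switches mTORC1 on, rose slightly, and its relative Rhebl1 (1.31) rose from a low level of 1.11, 0.534 and 1.01 CPM. Of 21 genes of amino acid sensing at the lysosome, 4 rose and 6 fell, all by less than 1 on the log2 scale, with Sec13 (-0.81) and Rragc (-0.52) lowest and Fnip2 (0.31) highest. Rheb did not pass without rapamycin replicate 2 or 3 or vehicle replicate 1 or 3 (0.11 to 0.17, adjusted p 0.0819 to 0.162, edgeR). Fnip2 did not pass without rapamycin replicate 1 or 3 (0.26 to 0.28, adjusted p 0.0503 to 0.0526, edgeR).

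Growth factor input genes rose more often than they fell. Of 21 tested, 13 were higher, 2 lower and 6 did not pass, against 24.6% and 26.2% of all genes. Irs2, the adaptor that links insulin and IGF-1 receptors to PI3K, rose from 19, 15.5 and 20.1 CPM to 45.6, 34.2 and 28.7 CPM (0.98, SE 0.15). The AKT kinase gene Akt1 (-0.16) fell slightly, but did not pass without a filter (adjusted p 0.0967) or with 2 groups in the fit (adjusted p 0.0559, edgeR). The insulin receptor Insr (0.57) and the PI3K catalytic subunits Pik3cg (0.76), Pik3cd (0.56), Pik3cb (0.38) and Pik3ca (0.33) all rose, as did the opposing phosphatase Phlpp1 (1.11). Of 12 genes for direct outputs of mTORC1, 7 rose and 3 fell. Pdcd4, a translation inhibitor degraded when S6 kinase is active, rose from 4.45, 4.9 and 4.29 CPM to 19.4, 19.8 and 19.6 CPM (2.11, SE 0.09), the largest change of the pathway's 81 tested genes. The autophagy kinase Ulk1 (1.09), the phosphatidate phosphatase Lpin1 (1.10) and the translation repressor Eif4ebp2 (0.61) rose, and the cap-binding factor Eif4e (-0.54) and the S6 kinase Rps6kb1 (-0.32) fell.

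**Figure D1:**
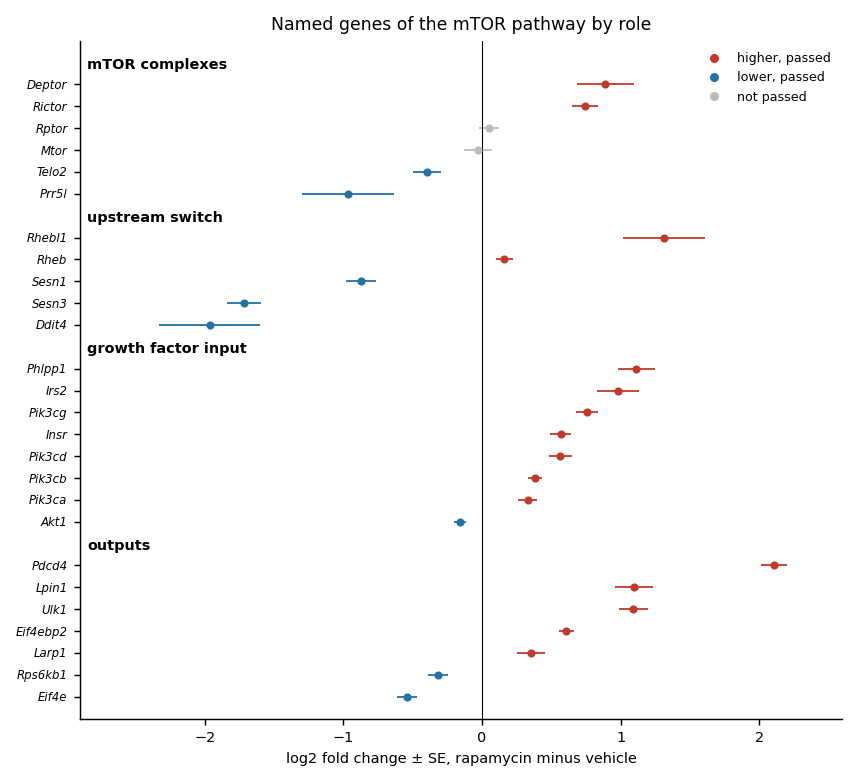
Log2 fold change of rapamycin over vehicle (x axis) with its standard error for 26 genes named in the text, ordered within 4 roles of the mTOR pathway. The roles are mTOR complexes, upstream switch, growth factor input and outputs, and Fkbp1a and the genes of amino acid sensing are not shown. Red and blue points passed at an adjusted p under 0.05 (edgeR) and grey points did not. Genes of growth factor input lie mostly to the right, the brakes Ddit4 and Sesn3 lie far to the left, and the mTORC1 genes Mtor and Rptor lie near 0.

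Transcripts of the ribosome itself were higher with rapamycin. Of 78 cytosolic ribosomal protein genes tested, 74 rose and 0 fell, with a median log2 fold change of 0.48 against 0.001 for all 12511 genes. Together they took 2.94%, 2.98% and 2.92% of the scaled counts with vehicle and 4.04%, 4.12% and 4.32% with rapamycin. Rpl37a rose from 165, 171 and 166 CPM to 328, 368 and 386 CPM (1.11, SE 0.06), and Rps4x (1.03) and Rpl10 (0.999) rose nearly as far. At the other end of the list, Rpl12 (0.07), Rpl41 (0.11) and Rps2 (0.07) were among those that did not pass. Ribosomal protein genes have many processed copies, so reads shared with those copies make single values uncertain.

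Most genes of elongation and others listed as regulated with the TOP class rose too. Of 13, 10 rose and 2 fell. Several of them, Eef2 included, hold no run by the rule used above. Of the 7 translation factor genes of any kind that hold one, 5 rose and 1 fell. Eef1a1, the elongation factor that delivers aminoacyl-tRNA, stood at 6123, 6248 and 6431 CPM with vehicle and 13310, 12940 and 14800 CPM with rapamycin. Pabpc1, the poly(A)-binding protein, stood at 688, 677 and 701 CPM with vehicle and 1611, 1468 and 1698 CPM with rapamycin, and Eef2, which moves the ribosome along, at 1752, 1799 and 1846 CPM with vehicle and 3584, 3413 and 3537 CPM with rapamycin. For all 3, each rapamycin library stood above each vehicle library, with log2 fold changes of 1.13, 1.21 and 0.96 and standard errors of 0.07, 0.06 and 0.05. Larp1 (0.36), whose product binds TOP mRNAs, rose less.

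Initiation factors divided. Of 37, 12 rose and 16 fell. Inside the eIF3 complex Eif3f (0.99), Eif3e (0.90), Eif3h (0.77), Eif3a (0.60), Eif3m (0.56), Eif3k (0.28) and Eif3l (0.24) rose, Eif3b (-0.53) fell, and the other 5 tested subunits did not pass. Eif4b, a helper of the helicase eIF4A, rose from 238, 220.5 and 244 CPM to 475, 427 and 475 CPM (0.97), and the helicase isoform Eif4a2 (1.04) rose while Eif4a1 (-0.45) fell. Eif5a fell from 803, 862 and 754 CPM to 497, 546 and 491 CPM (-0.66).

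Enzymes that charge tRNAs and factors that build ribosomes went the other way from ribosomal proteins. Of 21 cytosolic aminoacyl-tRNA synthetase genes and their scaffolds, 16 fell and 2 rose (median -0.41), with Aimp2 (-0.995), Vars (-0.80) and Wars (-0.78) lowest and Qars (0.50) highest. Of 45 genes of RNA polymerase I and rRNA processing, 21 fell and 5 rose (median -0.22), with Rrp12 (-0.83) and Wdr12 (-0.81) among the falls. The polymerase I factor Ubtf (0.67) and Myc (1.06), a regulator of ribosome building, were among the rises. Noncoding hosts of small nucleolar RNAs, which also begin with TOP runs and are degraded when translated, rose in 6 of 12 cases and fell in 0, or in 1 without rapamycin replicate 3. Gas5 stood at 7.15, 9.46 and 7.85 CPM with vehicle and 36.4, 27.8 and 51 CPM with rapamycin, a log2 fold change of 2.24 (SE 0.20), with replicate 3 the highest of the rapamycin libraries.

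**Figure D2:**
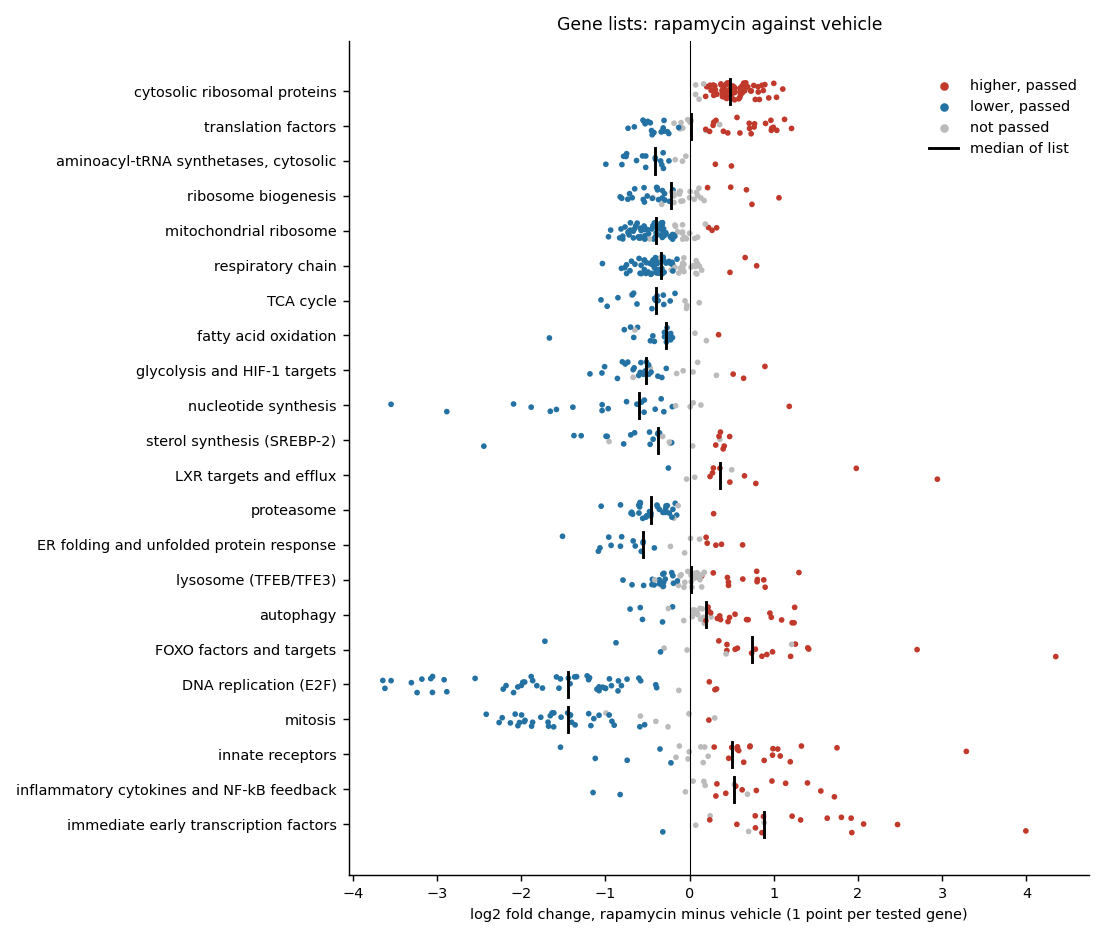
Log2 fold change of rapamycin over vehicle for every tested gene of 22 lists (1 point per gene, spread vertically for visibility only); red and blue points passed, grey points did not, and black bars are list medians. Cytosolic ribosomal proteins lie to the right of 0 with a median of 0.48, mitochondrial ribosome, respiratory chain and proteasome genes lie to the left, and replication and mitosis genes lie farthest left with medians near -1.4.

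Mitochondrial genes fell broadly and by modest amounts. Of 77 mitochondrial ribosomal protein genes, 59 fell and 3 rose (median -0.40), the reverse of the cytosolic ribosome. Mrps22 fell from 17.4, 21 and 20.03 CPM to 8.5, 10.7 and 10.6 CPM (-0.96, SE 0.12), and Mrpl28 from 59.5, 62.9 and 57.5 to 35.3, 29.2 and 29.5 CPM (-0.94). The exceptions were Mrpl52 (0.32), Mrpl30 (0.27) and Mrps21 (0.22). Mrps21 did not pass under library totals alone (adjusted p 0.114), without a filter (0.0631) or without replicate 3 of any group (0.0747, edgeR). Nuclear genes of the respiratory chain fell in 51 of 75 cases and rose in 3 (median -0.35), or in 5 without rapamycin replicate 1.

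By complex, the falls numbered 24 of 36 genes in complex I, 3 of 4 in complex II, 8 of 10 in complex III with cytochrome c, 5 of 10 in complex IV and 11 of 15 in ATP synthase. The cytochrome c1 gene Cyc1 stood at 126, 134 and 128 CPM with vehicle and 72.9, 74.6 and 74 CPM with rapamycin, with every rapamycin library lower (-0.81, SE 0.05). Atp5g1, one of 3 genes for the same ATP synthase c subunit, fell from 109, 127 and 118 CPM to 54.3, 59.8 and 58 CPM (-1.04). Its sister gene Atp5g3 (-0.52) also fell, while Atp5g2 (0.48) rose. Uqcrh (0.80) of complex III and Ndufa6 (0.66) of complex I were the other rises. Genes encoded by the mitochondrial genome were not analysed here.

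Most genes of enzymes that feed the chain fell too. Of 20 genes of the TCA cycle and its entry, 15 fell and 0 rose (median -0.40), among them Idh3a (-0.98), Suclg2 (-0.85) and Pdhb (-0.68). Of 23 genes of fatty acid oxidation, 19 fell and 1 rose. The riser was Cpt1a, which admits long-chain fatty acids to the mitochondrion, from 216, 214 and 220.3 CPM to 288, 273 and 264 CPM (0.34). Eci2 (-0.78), Etfdh (-0.70) and Hadhb (-0.66) were among the falls (list median -0.28).

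**Figure D3:**
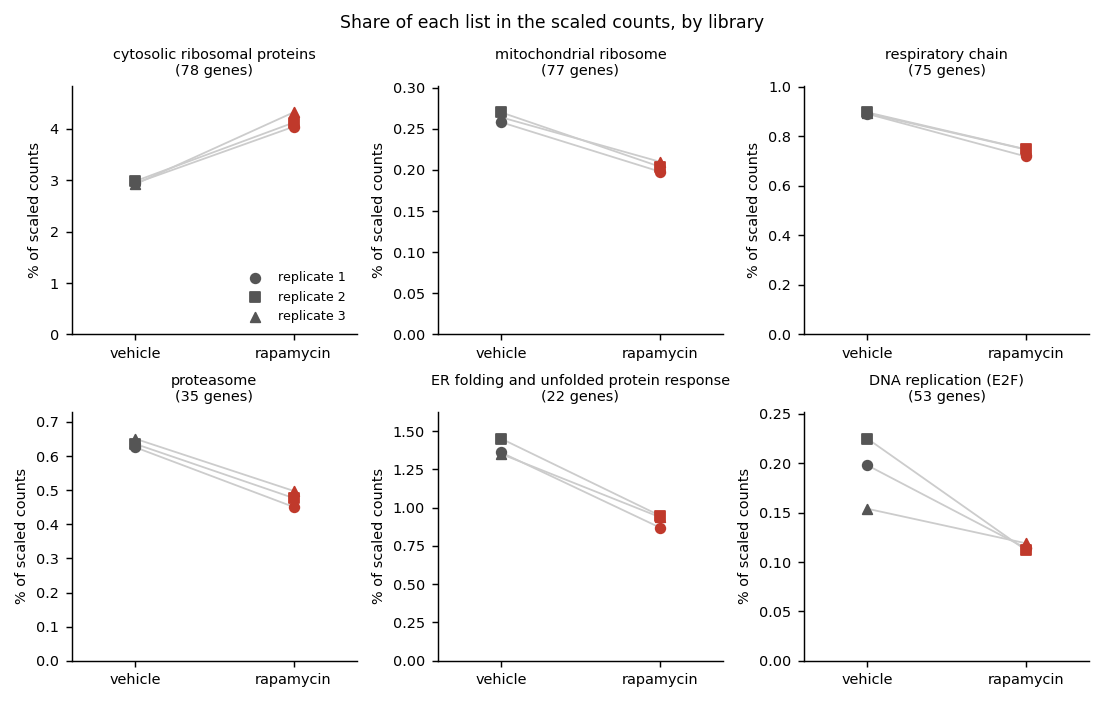
Summed share of the scaled counts in percent (y axis, from 0) taken by 6 gene lists in each vehicle (grey) and rapamycin (red) library; marker shape gives the replicate number and lines join the same number. The ribosomal protein share lay at 2.92% to 2.98% with vehicle and 4.04% to 4.32% with rapamycin, the other 5 lists fell in all 3 pairs, and the replication share with vehicle was lowest in replicate 3.

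Most genes of glycolysis and the HIF-1 programme were lower. mTORC1 raises HIF-1α, the factor that turns on glycolytic genes. Hif1a itself fell from 202, 200.5 and 193 CPM to 131, 130.4 and 137 CPM (-0.58, SE 0.05). Of 31 genes of glycolysis and other HIF-1 targets, 21 fell and 3 rose (median -0.51). Ldha, lactate dehydrogenase A, stood at 1371, 1153 and 1409 CPM with vehicle and 647, 673 and 633 CPM with rapamycin, and Pfkfb3, which makes the activator of phosphofructokinase, at 128, 115 and 130.1 CPM with vehicle and 63.4, 53.7 and 64.2 CPM with rapamycin. Neither gene's groups overlapped, and the log2 fold changes were -1.01 and -1.04. Pgam1 (-0.86), Tpi1 (-0.76), Pkm (-0.60) and the lactate exporter Slc16a3 (-0.80) fell less. Slc2a1, the glucose transporter GLUT1, rose from 93.4, 77.3 and 101 CPM to 174, 172 and 159 CPM (0.89), and Vegfa (0.64) and Gpi1 (0.52) also rose.

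Most genes for the synthesis of nucleotides and serine fell. Of 12 pyrimidine and deoxynucleotide genes, 11 fell and 0 rose (median -1.48), and of 12 purine genes, 8 fell and 1 rose. Pyrimidine genes that serve DNA synthesis fell most, with thymidine kinase Tk1 (-3.55), the ribonucleotide reductase subunit Rrm2 (-2.88) and thymidylate synthase Tyms (-2.09), while Cad (-0.75), the first enzyme of the pathway and a target of S6 kinase, fell less. Of 12 genes of serine, one-carbon and asparagine synthesis, 10 fell and 0 rose (median -0.96). Psat1, of serine synthesis, fell from 249, 278 and 241 CPM to 45.3, 55.7 and 44.9 CPM (-2.39, SE 0.13), and Shmt1 (-2.58), Phgdh (-1.55) and Asns (-0.71) fell with it. Phgdh did not pass without rapamycin replicate 3 or vehicle replicate 2 (-1.35 to -1.26, adjusted p 0.05 to 0.0518, edgeR). Their regulator Atf4 stood at 89.7, 95.7 and 116 CPM with vehicle and 84.4, 109 and 132 CPM with rapamycin, with overlapping groups, and did not pass (0.11, adjusted p 0.54, edgeR, Benjamini-Hochberg). Of 7 pentose phosphate genes, 4 rose and 2 fell, and the rate-setting G6pdx (-0.60) was among the falls.

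Most sterol synthesis enzymes fell and most of their regulators rose. Of 21 sterol synthesis enzymes and the LDL receptor, 14 fell and 2 rose, whereas of 6 regulators 4 rose and 1 fell. Squalene epoxidase, Sqle, fell from 19.8, 26.3 and 23.5 CPM to 8.69, 8.48 and 9.62 CPM (-1.37, SE 0.14), and Idi1 (-1.29) and Mvk (-0.78) also fell. Srebf2, the transcription factor that drives these enzymes, rose from 49.97, 46.3 and 49.1 CPM to 68.3, 64.3 and 69.6 CPM (0.48), and its processing partners Scap (0.37), Mbtps1 (0.40) and Mbtps2 (0.41) rose. Fatty acid synthase, Fasn, fell from 40.5, 40.6 and 38.1 to 16.7, 18.9 and 11.4 CPM (-1.34), and its regulator Srebf1 (0.40) rose. Of 15 genes of fatty acid synthesis, that regulator included, 7 fell and 4 rose (median -0.09), and 2 rose without vehicle replicate 1. The elongase Elovl6 (-1.92) fell most, and the desaturase Scd1 (0.52), the elongase Elovl5 (0.44) and the acetyl-CoA synthetase Acss2 (0.35) were the other rises. Scd1 did not pass without rapamycin replicate 1 or vehicle replicate 1 (0.43 to 0.44, adjusted p 0.0674 to 0.0747, edgeR). Acss2 did not pass without vehicle replicate 1 or 2 (0.26 to 0.33, adjusted p 0.0588 to 0.0591, edgeR).

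Uptake and storage genes moved both ways. Of 20 uptake and binding genes, 8 rose and 6 fell. The scavenger receptor Cd36 stood at 8992, 9378 and 8323 CPM with vehicle and 13350, 14740 and 13100 CPM with rapamycin, and lipoprotein lipase, Lpl, at 1975, 1753 and 2125 CPM with vehicle and 3358, 3127 and 3268 CPM with rapamycin. Both rose in all 3 libraries without overlap (0.63 and 0.74, SE 0.09 and 0.11). The intracellular carrier Fabp5 fell from 3554, 2991 and 4077 CPM to 1326, 1096 and 1336 CPM (-1.50, SE 0.11). Lrp1, an endocytic receptor for lipoproteins, stood at 170.1, 116 and 227 CPM with vehicle and 568, 325 and 358 CPM with rapamycin (1.28). Of 20 droplet genes, 7 rose and 9 fell. The droplet coat gene Plin2 fell by a small, even amount, from 3614, 3778 and 3724 CPM to 2803, 2868 and 2843 CPM (-0.38, SE 0.05), and the triglyceride lipase Pnpla2 rose from 136, 124 and 159.6 to 252, 208 and 261 CPM (0.78).

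Cholesterol efflux genes rose in most cases. Of 13 LXR targets and efflux genes, 9 rose and 1 fell (median 0.36). Apoe, the lipoprotein that carries cholesterol out of macrophages, stood at 1170, 895 and 2002 CPM with vehicle and 5862, 5299 and 4875 CPM with rapamycin (1.98, SE 0.23). Its vehicle value was highest in replicate 3, and the groups did not overlap. The phospholipid transfer protein Pltp rose from 87.1, 66.7 and 103 CPM to 671, 678 and 622 CPM (2.94), but its gene overlaps Ctsa and strand is not known. Abcg1, a cholesterol exporter, rose from 771, 689.9 and 752 to 899, 891 and 881 CPM (0.27), and the exporter Abca1 stood at 1153, 1113 and 1136 CPM with vehicle and 1177, 1091 and 1049 CPM with rapamycin and did not pass.

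Lysosome, autophagy and proteasome genes did not move together. TFEB, TFE3 and MITF are transcription factors for lysosomal genes that mTORC1 keeps out of the nucleus. Their genes rose: Mitf from 32.8, 29.4 and 32.5 CPM to 81.2, 72 and 79.8 CPM (1.30, SE 0.07), with Tfeb (0.80) and Tfe3 (0.80) behind it. Of 33 lysosomal membrane and hydrolase genes, 9 rose and 11 fell, and of 16 proton pump genes, 7 fell and 0 rose. The cathepsins Ctss (0.88), Ctsa (0.90) and Ctsf (0.80) rose and Ctsk (-0.44), Ctsz (-0.42) and Ctsl (-0.29) fell. Ctsl did not pass without rapamycin replicate 2 or 3 or vehicle replicate 1 or 3 (-0.29 to -0.21, adjusted p 0.0959 to 0.149, edgeR). Of 37 autophagy genes, 18 rose and 5 fell (median 0.19), with the receptor Calcoco1 (1.25), Atg2a (1.24), Map1lc3a (1.22) and Atg14 (0.97) highest. The proteasome went down almost as a block, with 32 of 35 genes lower and 1 higher (median -0.46). Psmd14, the deubiquitinase of its lid, fell from 176, 187 and 169.7 CPM to 73.6, 92.2 and 90.5 CPM (-1.05, SE 0.08). Nfe2l1 (0.28), the factor that drives proteasome genes, was the single rise.

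Most genes of folding in the endoplasmic reticulum fell, and sensors of its stress were among the rises. Of 22 genes, 13 fell and 5 rose (median -0.55). Hspa5, the chaperone BiP, stood at 2237, 2617 and 2349 CPM with vehicle and 981, 1210 and 1252 CPM with rapamycin (-1.06, SE 0.09), and Sdf2l1 (-1.51), Creld2 (-1.08) and Calr (-0.93) also fell. The rises were the sensors Ern1 (0.63) and Atf6 (0.31) with Dnajb9 (0.38), Edem1 (0.21) and Xbp1 (0.20). Dnajb9 did not pass without rapamycin replicate 3 or vehicle replicate 1 (0.22 to 0.32, adjusted p 0.0581 to 0.0695, edgeR). Under library totals alone Edem1 and Xbp1 did not pass (adjusted p 0.114 and 0.091, edgeR), nor did Edem1 without replicate 3 of any group (0.0527).

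Most genes switched on by FOXO factors, which AKT keeps out of the nucleus, rose. Of 23 factors and targets, 16 rose and 3 fell (median 0.74). Fbxo32, a ubiquitin ligase subunit known from muscle wasting, showed the largest rise of the genes ranked by size. It stood at 10.2, 10.4 and 10.8 CPM with vehicle and 189, 225 and 225 CPM with rapamycin, a log2 fold change of 4.35 (SE 0.08), and the groups lay far apart. The transcriptional co-regulator Cited2 (2.70), the repressor Bcl6 (1.41), the cell death gene Bcl2l11 (1.40), the cyclin Ccng2 (1.26) and the metabolic regulator Txnip (1.20) rose as well. The factors Foxo1 (0.54) and Foxo3 (0.44) themselves rose less. The falls were the sestrins Sesn3 (-1.72) and Sesn1 (-0.87) and the superoxide dismutase Sod2 (-0.35).

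Cell cycle genes fell far. Of 53 replication genes, 49 fell and 3 rose, with a median log2 fold change of -1.44, and of 41 mitosis genes, 34 fell and 1 rose (median -1.45), and 2 rose with the replicate block. Mcm5, a subunit of the replicative helicase, stood at 74.8, 97.6 and 42.1 CPM with vehicle and 8.95, 10.1 and 6.37 CPM with rapamycin (-3.08, SE 0.28). Tk1 stood at 40.8, 52.6 and 20.4 CPM with vehicle and 2.58, 3.98 and 3.06 CPM with rapamycin (-3.55), and Uhrf1, which maintains DNA methylation, at 24.1, 27.1 and 13.9 CPM with vehicle and 1.8, 2.94 and 2.06 CPM with rapamycin (-3.24). In all 3 genes the groups were separate, and the lowest vehicle library was replicate 3.

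Mitotic genes summed to 797, 1009 and 561 CPM with vehicle and 359, 343 and 449 CPM with rapamycin, so the fall was smallest between the libraries of replicate 3. Top2a, topoisomerase II, stood at 70.3, 86.3 and 39.8 CPM with vehicle and 14.9, 14.2 and 20.1 CPM with rapamycin (-1.996, SE 0.25). The kinase Bub1 (-2.26), the cyclin Ccnb1 (-2.13) and the survivin gene Birc5 (-2.42) fell too, and Bub1 stood at -2.93 with replicate 3 of every group left out. Replication genes that rose were Pcna (0.23), Cdt1 (0.30) and E2f3 (0.32). Cdt1 did not pass without rapamycin replicate 1 or 3 or vehicle replicate 3 (0.24 to 0.25, adjusted p 0.0572 to 0.0645, edgeR). Pcna did not pass under library totals alone (0.136, adjusted p 0.1) or without replicate 3 of any group (0.137, adjusted p 0.0593, edgeR). Among G1 regulators, the cyclin Ccnd1 (-1.09) and its kinase Cdk4 (-0.65) fell, and the inhibitors Cdkn1b (0.92) and Cdkn2b (1.34) rose while Cdkn1a (-0.73) fell.

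Chemokines changed in opposite directions. Ccl2, the main attractant of monocytes, fell most of the genes ranked by size, from 21.7, 38.9 and 29.6 CPM to 0.386, 0.379 and 0.251 CPM (-6.46, SE 0.42). Its neighbour in the family Ccl7 stood at 4.11, 8.69 and 5.2 CPM with vehicle and 0, 0.284 and 0 CPM with rapamycin and passed. Of 11 chemokine genes, 4 rose and 7 fell, and 2 rose without vehicle replicate 1. Cxcl14 rose from 86.3, 98.6 and 83.5 CPM to 406, 484 and 253 CPM (2.09), and Ccl5, a T cell attractant, stood at 33.6, 18.8 and 91 CPM with vehicle and 109, 72.5 and 309.8 CPM with rapamycin. Replicate 3 was the highest of each group for Ccl5, so the groups overlap, while each rapamycin library was above the vehicle library of its number (1.78, adjusted p 0.0355 and 6.48e-09 with the replicate block, edgeR, Benjamini-Hochberg). Ccl5 did not pass without rapamycin replicate 3 or vehicle replicate 1 or 2 (0.92 to 1.58, adjusted p 0.101 to 0.224, edgeR). Without vehicle replicate 3 it passed at 2.64.

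Innate receptors and early response genes rose more often than they fell. Of 31 receptors, 18 rose and 5 fell (median 0.50). Cd14, the co-receptor for lipopolysaccharide, rose from 44.7, 37.8 and 51.6 CPM to 456, 463 and 389 CPM (3.29, SE 0.11), with its partner Ly96 (0.88). The complement receptor C5ar1 (1.33), the interferon receptor Ifngr1 (1.20) and the Fc receptors Fcgr2b (1.08) and Fcgr3 (0.98) rose, and the Toll-like receptors Tlr2 (-1.53) and Tlr1 (-1.12) fell. Of 20 immediate early factors, 15 rose and 1 fell (median 0.88). Nr4a1, an orphan nuclear receptor, stood at 2.7, 3.64 and 3.42 CPM with vehicle and 51.5, 62.5 and 40.9 CPM with rapamycin (3.99, SE 0.21), and Egr2 (2.47), Fosb (2.07), Egr1 (1.93), Junb (1.92) and Fos (1.80) rose with it, while Jun (-0.32) fell slightly. Fosb did not pass without rapamycin replicate 1 or 3 or vehicle replicate 1, 2 or 3 (1.65 to 2.41, adjusted p 0.0566 to 0.146, edgeR). Of 19 cytokine and NF-κB feedback genes, 11 rose and 2 fell. The rises included feedback inhibitors, such as Tnip3 (1.72), Dusp1 (1.40), Zfp36 (1.14) and Nfkbie (0.98), and the falls were Il1a (-0.83) and Ier3 (-1.15).

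Arg1 led the genes of alternative activation, yet the list did not move as one: 3 of 10 rose and 4 fell. Arg1, arginase 1, stood at 35.4, 29.5 and 29.9 CPM with vehicle and 586, 769 and 307 CPM with rapamycin (4.13, SE 0.37). All rapamycin libraries were far above vehicle, and replicate 3 was the lowest of them. Egr2 (2.47) and the β-glucan receptor Clec7a (1.43) rose. The mannose receptor Mrc1 fell from 191, 185 and 149.9 CPM to 80.1, 63.6 and 65.7 CPM (-1.33), and Clec10a (-0.87), Il4ra (-0.74) and Tgm2 (-0.41) fell. Of 12 matrix metalloproteinases and their relatives, 7 rose and 1 fell. Mmp12, macrophage elastase, stood at 942, 942 and 689.5 CPM with vehicle and 8675, 7783 and 7446 CPM with rapamycin (3.22, SE 0.12), Mmp13 (3.39) and Mmp9 (1.81) rose with it, and the inhibitor Timp2 (-1.35) fell. Of 19 genes of lipid-associated macrophages, 7 rose and 6 fell. Cd5l, a secreted scavenger protein, fell from 1038, 1014 and 1374 CPM to 181, 212 and 216 CPM (-2.49), and the lipid receptor Trem2 rose from 679.6, 604 and 760.4 to 1054, 1017 and 1071 CPM (0.62).

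Markers of other cells were checked beside these changes. Macrophage markers were abundant in all libraries, summing to 15320 to 19990 CPM with vehicle and 22210 to 24460 CPM with rapamycin. Of 17, 8 rose and 7 fell: Csf1r (0.57), Ptprc (0.82) and Lyz2 (0.61) were among the rises and Adgre1 (-0.42) and the complement genes C1qa (-1.02), C1qb (-0.58) and C1qc (-0.68) among the falls. Lyz2 was the largest part of the macrophage sums, at 9370, 8129 and 11760 CPM with vehicle and 15830, 14700 and 14250 CPM with rapamycin. Markers of fibroblasts summed to 120, 85.4 and 35.2 CPM with vehicle and 369, 264 and 76.2 CPM with rapamycin, higher in each pair and lowest in replicate 3 of both groups. Of 9 tested, 1 rose (Fn1, which macrophages also make) and 0 fell, and with the replicate block 6 rose and 0 fell. Without rapamycin replicate 3, 5 rose, and without vehicle replicate 1, 2 rose. Fn1 stood at 34, 19.5 and 13.5 CPM with vehicle and 219, 148 and 49 CPM with rapamycin (2.62), and was the largest part of each rapamycin sum. The collagen Col1a1 stood at 10.2, 5.78 and 2.17 CPM with vehicle and 25.2, 15.5 and 3.36 CPM with rapamycin. Col1a1 did not pass at first (adjusted p 0.099) and passed with the block (0.00016, edgeR, Benjamini-Hochberg). It also passed without vehicle replicate 1 (1.87) or rapamycin replicate 3 (1.73). The markers Lum and Dcn were at 0 or below 1 CPM in all 6 libraries. They are among 5 of the 13 markers that averaged below 1 CPM, and the rest, most of them collagen genes, averaged more. Of the 9 tested, 8 had a positive log2 fold change. Arg1, Cxcl14 and Cav1 were likewise lowest in replicate 3 of the rapamycin group, and the part of other cells in those results was not tested.

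The homogenate also brings transcripts of the cord, and a few myelin transcripts were higher with rapamycin. Oligodendrocyte markers summed to 542, 679 and 600.2 CPM with vehicle and 900, 867 and 757 CPM with rapamycin, with 3 of 8 tested higher and 1 lower. Mbp, myelin basic protein, stood at 367, 472 and 416 CPM with vehicle and 668, 634 and 538 CPM with rapamycin (0.55, SE 0.10), and Mobp (0.66) rose by a similar amount. Of 7 astrocyte markers, 3 rose and 0 fell (4 and 2 with the replicate block), with summed levels of 56 to 72.3 CPM and 50.1 to 81.9 CPM that overlap. Of these markers, 0 rose without vehicle replicate 1 or rapamycin replicate 2, 1 rose without rapamycin replicate 1, and 1 fell without vehicle replicate 3 or rapamycin replicate 1 or 2. Of 6 neuron markers 0 passed in either direction, and 1 rose with the block and 2 without vehicle replicate 2. The defining T cell marker Cd3e was at 0 in all 6 libraries, as were Ly6g and Mpo of neutrophils.

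**Figure D4:**
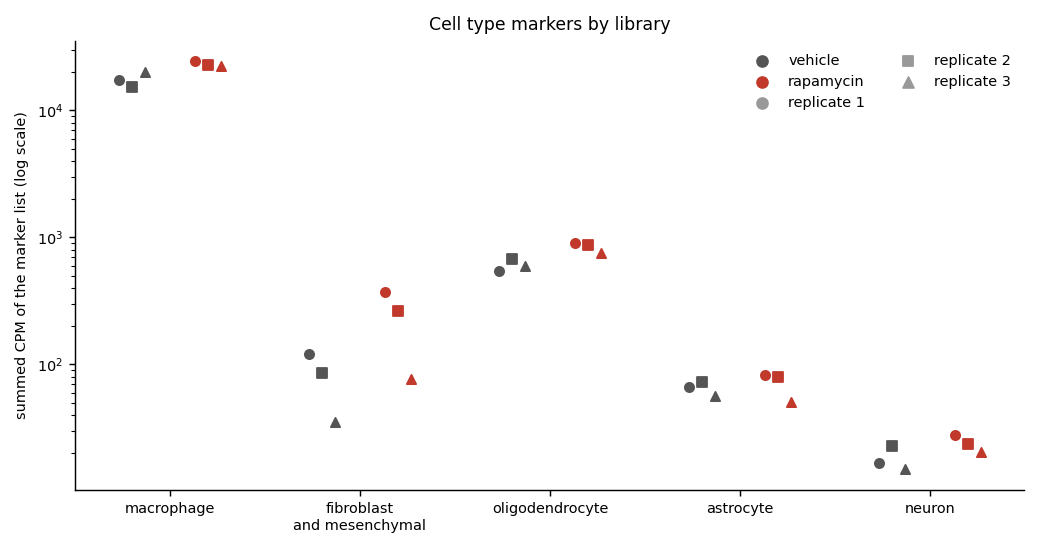
Summed CPM (y axis, log scale) of 5 lists of cell type markers in each vehicle (grey) and rapamycin (red) library; marker shape gives the replicate number. Macrophage sums lie between 15320 and 24460 CPM, fibroblast sums are highest with rapamycin in replicates 1 and 2 and lowest in replicate 3, and oligodendrocyte sums are higher in all 3 rapamycin libraries.

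Torin-2 marks which of these changes differed when the mTOR kinase itself was inhibited. Both compounds were given for the same times, but neither dose is known here, so doses cannot be said to match. Of the 12511 genes, 6035 (48.2%) passed, and 3025 (24.2%) were higher and 3010 (24.1%) lower with Torin-2 than with rapamycin. The changes of several leading genes differed little between them. Torin-2 minus rapamycin was -0.04 (SE 0.37) for Tk1, 0.18 (SE 0.30) for Mcm5, 0.05 (SE 0.11) for Fabp5 and -0.10 (SE 0.07) for Eef1a1 on the log2 scale, and these 4 did not pass, which does not show that the compounds act alike.

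Other changes were larger, smaller or reversed with Torin-2, and the plot of leading genes by library shows some of these genes. Arg1 was 49.8, 59.5 and 22.3 CPM with Torin-2, -3.67 (SE 0.36) relative to rapamycin, and Nr4a1 was 6.9, 7.07 and 4.48 CPM (-3.08). Lpl was 283, 369.8 and 279.8 CPM with Torin-2, far under its rapamycin level (-3.39, SE 0.12). Cytip, a regulator of cell adhesion, rose with rapamycin to 99.8, 119 and 93.2 CPM from 16.2, 17.6 and 15.1 CPM. With Torin-2 it was at 6.95, 7.49 and 5.18 CPM (-4.01). With Torin-2 both genes also stood below every vehicle library, the reverse of their rise with rapamycin. Fbxo32, Mmp12 and Cited2 were higher again with Torin-2, with differences of 1.03, 1.02 and 1.35. Cd5l, Hspa5 and Psat1 were lower again, with differences of -4.02, -1.46 and -1.61. Atf4, which did not pass for rapamycin, was 263, 293 and 320.4 CPM with Torin-2 (1.43, SE 0.14). All Torin-2 differences named in this paragraph passed at an adjusted p under 0.05 (edgeR, Benjamini-Hochberg).

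**Figure D5:**
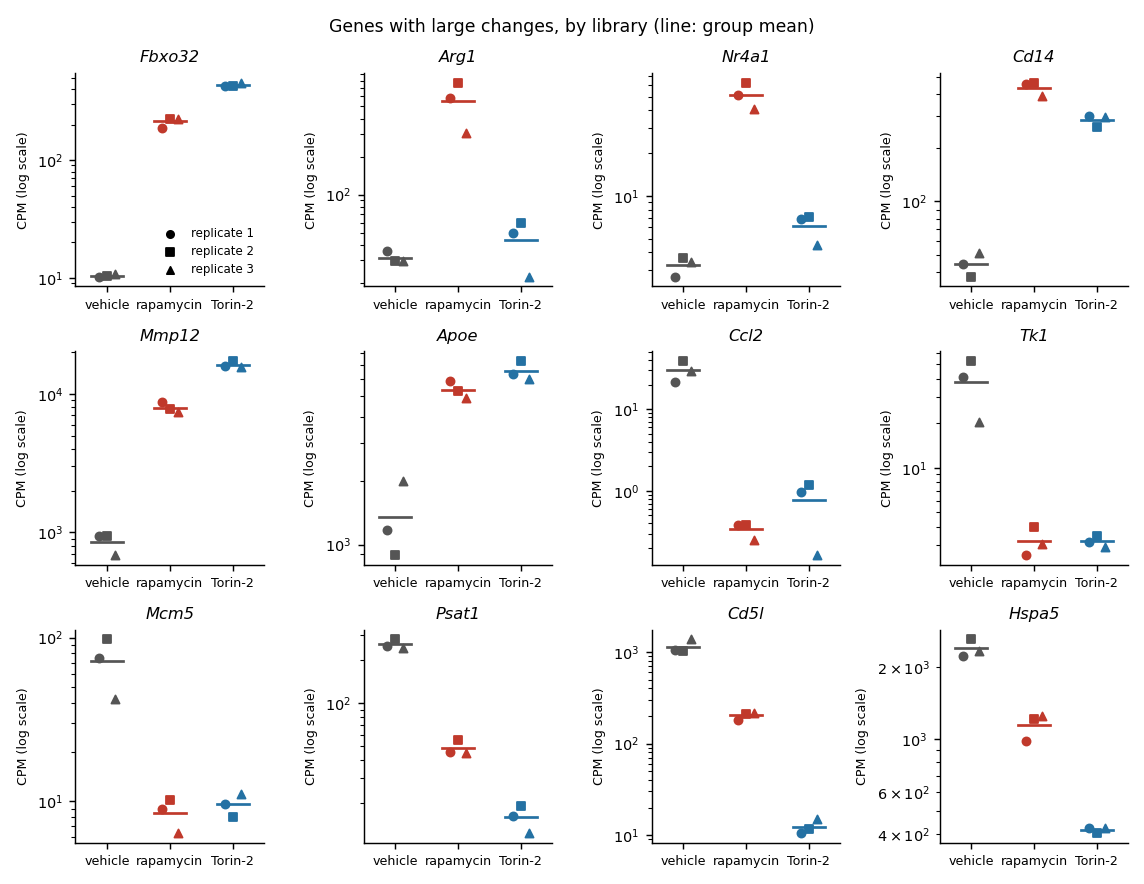
Expression in CPM (y axis, log scale) of 12 genes in every vehicle, rapamycin and Torin-2 library, with the group mean as a line and marker shape for the replicate number. Arg1 and Nr4a1 are high in the rapamycin libraries alone, Tk1 and Mcm5 are low with both compounds, and Fbxo32 and Mmp12 are higher again with Torin-2.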

How the data were processed

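RNA from cultured macrophages was sequenced as paired reads of 100 bp with the Nugen Universal Plus mRNAseq kit, per the labels' protocols. The authors deposited raw counts per gene in 1 table with a column for each of 9 samples. Per the submitters' processing notes, the tools named are STAR 2.5.2a, bcl2fastq and FastQC, and the builds mm10 and GRCm38.p6. Which counter, strand setting and annotation were used is not stated in the labels. Of 53342 identifiers, 53237 were found in GENCODE M21, which gave positions on GRCm38, and 0 were genes of the mitochondrial chromosome.

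Counts were fitted in R 4.3.3 with edgeR 4.0.16 (filterByExpr by group, TMM factors of 0.955 to 1.05 and a quasi-likelihood fit of all 9 libraries in 3 groups with no covariate). Tests were 2-sided, with Benjamini-Hochberg adjustment over 12511 genes and a threshold of 0.05. The fit was tested on simulated data. The common biological coefficient of variation was 9.96%. Depth limits low genes most, with totals of 16116666 to 24044329 counts per library.

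Same-numbered libraries of different groups deviated together. Correlations of their deviations from the group means were 0.257, 0.322 and 0.416 for the 3 rapamycin and vehicle pairs, and 0.168 to 0.5 over all 9 same-numbered pairs, against -0.358 to 0.162 for other pairs. The numbers were therefore taken to pair the samples in a fit with the replicate block, which was an alternative. The main fit left this pairing out. Other alternatives were DESeq2 1.42.0 and its size factors, library totals alone, no filter, 2 groups in the fit, no replicate 3, and each library left out.

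Named genes are the 15 largest rises and falls at 5 CPM or more without overlap, members of gene lists at 1 CPM or more (up to 4 in each direction of a role), all members of the mTOR pathway and marker lists, and genes fixed by name, of which the text gives a part. Some items are not reported here. The comparison, lists and named genes were chosen with earlier results of these data known. Leading genes lie, on GRCm38, on chromosome 15 from 58175879 to 58214932 (Fbxo32, ENSMUSG00000022358) and on chromosome 10 from 24915221 to 24927484 (Arg1, ENSMUSG00000019987), chromosome 11 from 82035571 to 82037453 (Ccl2, ENSMUSG00000035385) and chromosome 9 from 7344381 to 7369499 (Mmp12, ENSMUSG00000049723). Of 239 tested genes named in the text, 37 overlap another tested gene, among them Pltp (Ctsa), Junb (Prdx2), Dusp1 (Ergic1), G6pdx (Ikbkg), Shmt1 (Smcr8) and Tgm2 (Rprd1b), and their values are uncertain to that extent.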

Additional observations from a re-analysis of the deposited data

How the results depend on the processing

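No alternative moved a count over all genes by over 1.5 times. Genes higher and lower numbered 3078 and 3273, 3148 and 3235 with DESeq2 size factors, 3015 and 3101 by DESeq2's own test, 3135 and 3187 without a filter, 3050 and 2934 with 2 groups in the fit, and 2997 and 3153 without replicate 3 of any group. With the replicate block that pairs the samples they numbered 3462 and 3541, and the block changed the call of 1 of 239 named genes, Col1a1, and no other. It moved 5 list counts by over 1.5 times, each given beside its list. Library totals alone gave 2421 and 4046. Leaving out each library in turn gave 2595 to 3007 higher and 2850 to 3112 lower, and 387 to 509 and 579 to 698 at 2-fold or more. Of the 239 named genes, 226 to 233 kept their call and direction when 1 library was left out, 227 under library totals alone and 227 without replicate 3. Calls that ended were those of Cdt1, Dnajb9, Edem1, Eif3l, Mrps21, Pcna, Rheb and Xbp1 under library totals alone, Ctsl with DESeq2 size factors, Ccl5 and Phgdh by DESeq2's test, Akt1, Mrps21 and Rheb without a filter, and Akt1, Ctsl, Dnajb1 and Hspa1b with 2 groups in the fit. Small counts within lists moved more. Under library totals alone, 2 of the endoplasmic reticulum genes rose instead of 5, 1 replication gene instead of 3, 0 mitosis genes instead of 1, 4 droplet genes instead of 7 and 1 interferon-stimulated gene instead of 3, 5 antioxidant genes fell instead of 3, and 1 astrocyte marker and 1 host of small nucleolar RNAs fell instead of 0. Without replicate 3 of any group, 3 endoplasmic reticulum genes, 1 replication gene, 6 fibroblast markers, 6 interferon-stimulated genes and 1 neuron marker rose, and 2 astrocyte markers, 1 such host and 1 RNA quality gene fell. Without a filter 6 fibroblast markers and 1 neuron marker rose and 2 astrocyte markers fell, and with 2 groups in the fit 1 neuron marker rose and 0 RNA quality genes fell. Signs of named genes turned only for genes that had not passed. Under library totals alone these were Fkbp1a (-0.012), Rpl12 (-0.027), Rps2 (-0.025) and Rptor (-0.043). Mtor stood at 0.045 without replicate 3 of any group and at -0.133 to 0.0397 over the fits without 1 library and Atf4 at -0.0515 to 0.262 over the same fits, and the cause was not tested. Depth limits genes of few counts, such as Ccl2 with rapamycin.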

Other observations

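Several of the largest changes belong to no list described above. Crebrf, a regulator of the CREB3 factors, rose from 11.5, 10.9 and 12.4 CPM to 64, 64.9 and 79.8 CPM (2.58, SE 0.10), and Tcp11l2 from 8.65, 6.84 and 7.37 to 38.8, 32.7 and 36.9 CPM (2.24). Klra2, a lectin-like receptor of the Ly49 family, rose from 3, 3.25 and 2.89 CPM to 15.4, 14.2 and 16.2 CPM (2.33), and Cav1, the membrane protein caveolin-1, from 8.09, 5.48 and 7.51 to 49.2, 52 and 37.2 CPM (2.71). In each of these genes the groups were well separated, and for Cav1 replicate 3 was the lowest rapamycin library. Among falls, Npl, an enzyme that splits sialic acid, went from 32.4, 33.1 and 23.4 CPM to 3.6, 3.6 and 3.86 CPM (-3.005), and Cd300lf, an inhibitory receptor for lipids, from 69, 67.8 and 77.5 to 8.24, 10.3 and 8.57 CPM (-2.97). Slc2a6, a sugar transporter, fell from 19.6, 17.4 and 16.7 CPM to 2.77, 2.75 and 2.15 CPM (-2.81), and the carbonyl reductase Cbr2 from 11.3, 12.9 and 8.95 to 1.29, 1.51 and 1.1 CPM (-3.08).

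Iron and antioxidant genes changed in part. Of 18, 8 rose and 3 fell. The transferrin receptor Tfrc fell from 29.6, 55.5 and 25.3 CPM to 9.14, 11.4 and 9.47 CPM (-1.87, SE 0.25), with vehicle replicate 2 high, and the iron exporter Slc40a1 (0.70) rose. Haem oxygenase, Hmox1, fell from 10190, 10120 and 10260 to 7552, 8320 and 6268 CPM (-0.47), while Gsr (0.81), Srxn1 (0.76), Gclm (0.71) and Gclc (0.55) of glutathione and peroxide defence rose. Hmox1 did not pass without rapamycin replicate 3 (-0.36, adjusted p 0.053, edgeR). Interferon-stimulated genes, 26 in all, had 3 higher and 3 lower, and 5 were higher with the replicate block. Without vehicle replicate 1 or 2, 1 was higher, without vehicle replicate 3, 6 were higher and 1 lower, and without rapamycin replicate 1, 1 was lower. Irf1 (0.76) was among the rises and Isg15 (-0.57) among the falls. Isg15 did not pass without rapamycin replicate 1 or 2 or vehicle replicate 3 (-0.51 to -0.41, adjusted p 0.07 to 0.0944, edgeR). Of 4 osteoclast markers tested, 2 rose and 2 fell. The fusion gene Ocstamp, 1 of the 2 rises, stood at 0.214, 0.194 and 0 CPM with vehicle and 3.41, 2.23 and 1.85 CPM with rapamycin. The falls were the osteoclast enzymes Acp5 (-0.99) and Ctsk (-0.44). Of 6 genes taken as signs of RNA quality or stress, the nuclear RNA Neat1 (1.08) rose, Hspa1b (-0.93) and Dnajb1 (-0.29) fell and 3 did not pass, with summed levels of 138 to 152 CPM with vehicle and 137 to 153 CPM with rapamycin. Hspa1b did not pass without rapamycin replicate 1 or 2 or vehicle replicate 2 or 3 (-1.04 to -0.55, adjusted p 0.0508 to 0.222, edgeR). Dnajb1 did not pass without rapamycin replicate 3 or vehicle replicate 2 (-0.25 to -0.20, adjusted p 0.0505 to 0.0519, edgeR).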
